A study of Mus musculus with 18 samples.

Results

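Trp63 and 8 keratin genes were followed through the prostates of mice with a mutated Elac2 gene, which encodes the endonuclease that trims the 3′ ends of tRNA precursors. The genes were chosen by name, with earlier results of these data known. Trp63, Krt5, Krt14 and Krt15 mark the basal layer of the prostate epithelium. Krt8, Krt18 and Krt19 mark its luminal layer, and Krt7 and Krt4 are keratins of ducts and of other simple or stratified epithelia. Each of the 9 had 1 entry among the 55469 genes of every table, and all 9 passed the minimum mean of 10 normalised counts. Total RNA of the ventral and lateral lobes was taken from male mice of the strain given as C56NL/6N, with 3 mice in each of 6 groups, which made 18 libraries. The KO mice carried a floxed Elac2 from which Pb-Cre, driven by the probasin promoter of prostate epithelium, removes exon 8, and the A537T mice carried the homozygous Ala537Thr substitution in every cell. At 10 weeks the libraries were 10AF to 12AF for WT, 13AF to 15AF for KO and 16AF to 18AF for A537T, and at 30 weeks 1AF to 3AF, 4AF to 6AF and 7AF to 9AF in the same order. The WT libraries of an age serve both lines, so the KO and A537T comparisons of an age share their controls.

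The prostate epithelium has an outer layer of basal cells on the basement membrane and an inner layer of secretory luminal cells. Trp63 encodes p63, a transcription factor of the p53 family that basal and stratified epithelia need for their formation. Keratins form filaments only as pairs of a type I and a type II chain. Krt5 (type II) pairs with Krt14 or Krt15 (type I) in basal cells, and Krt8 (type II) pairs with Krt18 or Krt19 (type I) in simple and luminal epithelia. Krt7 is a type II keratin of ducts and urothelium, and Krt4 a type II keratin of stratified mucosa that also marks cells of the proximal prostatic ducts. The balance of basal to luminal keratins is a usual description of the state of the gland. In bulk tissue, fewer cells of a layer and less RNA per cell cannot be told apart.

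In GRCm38, the type II genes lie on chromosome 15, with Krt7 at chr15:101411043-101430313 (forward strand), Krt5 at chr15:101707070-101712898, Krt4 at chr15:101918535-101924735 and Krt8 at chr15:101996698-102004482 (all reverse). Krt18, the one type I gene of this cluster, lies next to Krt8 on the forward strand at chr15:102028180-102032027. The other type I genes lie on the reverse strand of chromosome 11, with Krt15 at chr11:100131758-100135928, Krt19 at chr11:100140810-100148665 and Krt14 at chr11:100203162-100207548. Trp63 lies apart, on the forward strand of chromosome 16 (chr16:25683763-25892102). The tables list them as ENSMUSG00000023039.17 (Krt7), ENSMUSG00000061527.7 (Krt5), ENSMUSG00000059668.6 (Krt4), ENSMUSG00000049382.10 (Krt8), ENSMUSG00000023043.7 (Krt18), ENSMUSG00000054146.8 (Krt15), ENSMUSG00000020911.14 (Krt19), ENSMUSG00000045545.8 (Krt14) and ENSMUSG00000022510.14 (Trp63). RefSeq promoter windows (GRCm38.p6) were at hand for 5 of the 9 genes, and the window of Krt14 lies inside that gene and is not shown. The bases before the transcript start are printed 5′ to 3′ on the strand of the gene for the other genes. They are the basal gene Krt5, the luminal pair Krt8 and Krt18, whose levels moved together, and Krt7, which moved with Krt5 in part of the libraries. The Krt7 bases also lie inside the annotated span of that gene, but before the start of its principal transcript.
Krt5: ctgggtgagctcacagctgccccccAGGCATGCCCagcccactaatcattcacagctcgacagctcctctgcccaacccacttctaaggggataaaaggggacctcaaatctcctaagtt
Krt8: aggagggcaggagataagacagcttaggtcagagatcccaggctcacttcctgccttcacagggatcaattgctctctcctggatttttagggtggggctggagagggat
Krt18: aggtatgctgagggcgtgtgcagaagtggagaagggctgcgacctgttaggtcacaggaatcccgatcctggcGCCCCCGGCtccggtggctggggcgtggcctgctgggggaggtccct
Krt7: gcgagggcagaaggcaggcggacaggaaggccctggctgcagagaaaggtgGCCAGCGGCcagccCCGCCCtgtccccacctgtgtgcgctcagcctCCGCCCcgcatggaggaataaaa
These are chr15:101712906-101713025 for Krt5, chr15:102004483-102004592 for Krt8, chr15:102028060-102028179 for Krt18 and chr15:101412282-101412401 for Krt7. Capitals mark matches on either strand. In Krt5 the match is to a single 10-base unit of the response element of the p53 and p63 family, not to a whole element. The others are to the AP-2 motif GCCNNNGGC (Krt18 and Krt7) and to the GC box GGGCGG (Krt7). Over the 250 bases before the start, the single p53 and p63 unit matched in 7.13% of 32851 RefSeq promoters, AP-2 in 13.7% and the GC box in 32.7%. Of the Krt7 matches to AP-2, 1 overlapped a GC box. The TATA box TATAAA (12.4% of all promoters) and the AP-1 motif TGANTCA (6.75%) were in none of these 4 windows. A match describes letters and is not shown to be a site in use.

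Per kb of transcript, the luminal keratins led in all 18 libraries. Krt18 had a median of 209 CPM per kb (range 156 to 271, where CPM is the share of a library's recovered reads scaled to 1000000), Krt19 138 (88.4 to 217) and Krt8 84.6 (71.4 to 123), and this order held in each of the 18 libraries. Krt15 followed with a median of 21.6 (10.2 to 102) and Krt5 with 12.9 (8.56 to 85), again in the same order in all 18. The remaining genes were low and changed places between libraries. Their medians were 5.84 CPM per kb for Krt7, 4.70 for Krt4, 4.47 for Trp63 and 3.67 for Krt14. Krt7 is annotated with a long 3′ untranslated region, which lowers its value per kb. Elsewhere the text gives normalised counts, which compare libraries of a table for 1 gene and not genes with each other.

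The keratin pairs differed in how steady they were. Per kb, Krt8 stood at 36.8 to 48.3% of Krt18 in all 18 libraries, a spread of 1.31-fold between the lowest and the highest. Krt15 stood at 115 to 202% of Krt5, and Krt14 at 3.65 to 60.6% of Krt5, a spread of 16.6-fold. The Krt14 share was 43.6, 48.5 and 60.6% in the KO libraries at 10 weeks and 22.0, 23.0 and 39.1% in their WT controls, so that the groups did not overlap. It was lowest in the A537T libraries 17AF (10.7%) and 18AF (3.65%) at 10 weeks, where Krt5 was highest. The 4 type II keratins together came to 23.5 to 41.3% of the 4 type I keratins, and 18AF had the highest share. In log2 CPM over the 18 libraries, which share 6 groups and their depths, Krt8 and Krt18 had a Pearson r of 0.89, Krt5 and Krt15 of 0.94 and Krt5 and Krt14 of 0.31. Without 17AF and 18AF these were 0.88, 0.79 and 0.81 over 16 libraries.

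Libraries held 6569642 to 11225281 recovered reads, and the members had 19 (Krt14 in 8AF) or more in every one. Pbsn (probasin), a secretory gene of prostate luminal cells, was detected throughout, at 159 to 2881 CPM. Elac2 had 111 to 119 normalised counts in the 3 KO libraries at 10 weeks against 124 to 166 in WT, and 98.4 to 151 against 150 to 194 at 30 weeks, and gene counts do not show the lost exon. In the A537T tables it had 158 to 173 against 126 to 167 at 10 weeks and 114 to 189 against 147 to 191 at 30 weeks. Genes of other tissues differed between libraries. The 11 seminal vesicle genes (Svs2 the most abundant) took 6.56 to 10.3% of counts in KO at 10 weeks, 0.000847 to 4.64% in WT and 0.0397 to 0.20% in A537T. At 30 weeks their share was 8.53% in 4AF and 6.32% in 6AF (KO), 7.24% in 7AF and 9.18% in 9AF (A537T), and no more than 0.000380% in the 3 WT libraries, in 5AF (KO) and in 8AF (A537T). The 18 skeletal muscle genes took 3.89 to 12.6% in WT at 10 weeks, 0.0583 to 2.04% in KO, 1.53 to 4.34% in A537T and at most 0.0714% at 30 weeks. The 5 uroplakin genes, whose products coat the urothelium of the bladder and urethra, took 0.0447% of counts in 18AF, 0.0212% in 17AF and 0.00757 to 0.0183% in the other 16 libraries. The most abundant, Upk1a, had 150 CPM in 18AF and 158 in 5AF, and 10AF (41.0) and 17AF (88.7) lay within its range elsewhere. Upk3a, chosen after its values were seen, had 71.9 CPM in 18AF, 19.1 in 17AF and 6.10 in 10AF, no more than 2.21 in the other 15 libraries and 0 in 9 of them. The dissection in the study's methods took seminal vesicles, bladder, urethra and fat away before the lobes were separated. Krt20, another urothelial gene chosen after its values were seen, had 6.43 CPM in 18AF, 2.32 in 10AF (WT), 2.20 in 17AF and at most 0.953 elsewhere.

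**Figure D1:**
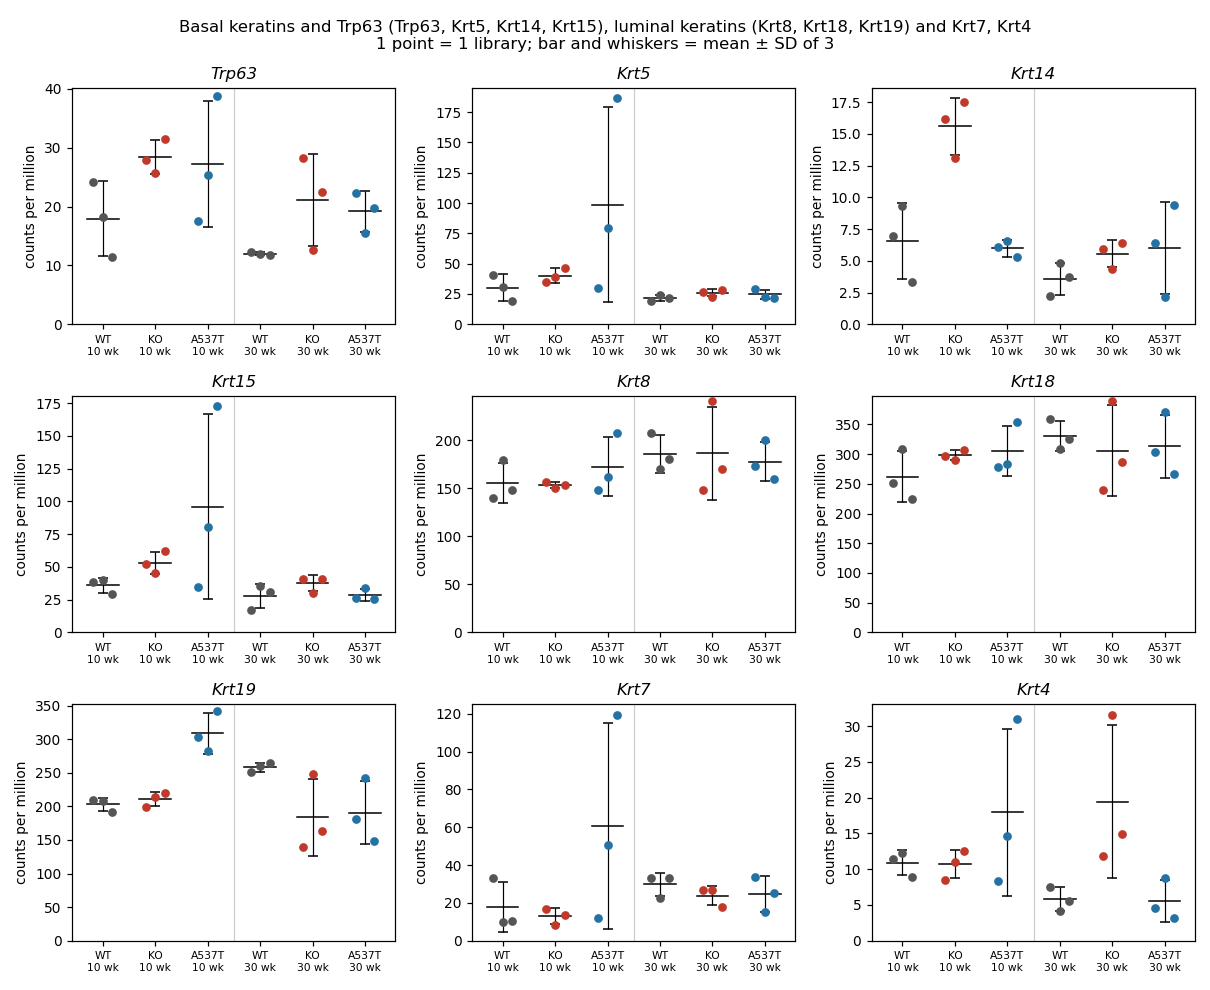
CPM (y axis) of the 9 genes in the 6 groups (x axis), with 1 point per library and the mean ± SD of 3 as bar and whiskers. Krt14 was highest in the 3 KO libraries at 10 weeks (13.1 to 17.5), Krt5 reached 187 in a single A537T library at 10 weeks against 18.8 to 40.9 in WT, and Krt19 was at 282 to 341 in A537T at 10 weeks.

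The KO mice were compared with WT at 10 weeks to ask whether loss of Elac2 in the epithelium altered the basal and luminal genes in young adults. Of the 4 basal genes, Trp63, Krt14 and Krt15 were higher in each KO library than in each WT library, and Krt5 overlapped. The 3 luminal keratins overlapped WT. None of the 9 passed an adjusted p of 0.05 in limma, which called 0 of 15089 genes (0%), while edgeR called 0 and DESeq2 715. Groups did not overlap with KO higher for 11.7% of all genes and with KO lower for 14.3%, and an unadjusted p under 0.05 was reached by 19.4% of genes and by 3 of the 9.

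Krt14 had 55.8, 79.1 and 34.7 normalised counts in WT libraries 10AF, 11AF and 12AF and 120.3, 107 and 131 in KO libraries 13AF, 14AF and 15AF. All 3 KO values lay above the highest WT value, with a mean of 119 ± 12.5 (SD, n = 3) against 56.5 ± 22.2, a 2.20-fold difference (log2 1.14, standard error 0.31, adjusted p = 0.183 from limma). Trp63 had 194, 155 and 118 in WT and 208, 209.6 and 237 in KO. The gap between the groups was small beside the spread of WT, and the fold was 1.42 (log2 0.51, standard error 0.20, adjusted p = 0.240). Krt15 had 306, 342 and 305 in WT and 388, 370.0 and 466 in KO, a log2 difference of 0.36 (standard error 0.14, adjusted p = 0.234). Krt5 had 328, 261 and 195 in WT and 257, 316 and 351 in KO, with 2 KO values inside the range of WT and 1 above it. Its log2 difference was 0.26 (standard error 0.22, adjusted p = 0.523 from limma). The basal genes had a median log2 difference of 0.43, and the median of all genes tested was -0.01.

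Krt8, the type II luminal keratin, had 1120.1, 1531 and 1534 normalised counts in WT and 1167, 1223 and 1156 in KO. The KO libraries sat close together and inside the range of WT, with a log2 difference of -0.22 (standard error 0.15, adjusted p = 0.429 from limma). Krt18 differed by -0.01 and Krt19 by -0.15 on the log2 scale, with standard errors of 0.14 and 0.13, and by 0.20 and 0.06 when libraries were scaled to the same total, which moved the median of all genes to 0.20. Krt7 lay between 69.1 and 125 normalised counts in KO against 82.5 to 264 in WT, and Krt4 between 63.6 and 93.7 against 92.0 to 105. Both overlapped.

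The summed share of the seminal vesicle genes, led by Svs2, was higher in each KO library than in each WT library. For 8 of the 11 genes by themselves KO was higher without overlap, as for 11.7% of all genes. Within WT the summed share was highest in 10AF, which also had the most Trp63 and Krt5, although 7 of the 11 genes were highest in 11AF. With the log2 share of the seminal vesicle genes as covariate, the differences were 0.73 for Krt14, 0.24 for Trp63 and -0.03 for Krt5. On that scale 12AF (0.000847%) stood far below 10AF (4.64%), 11AF (1.77%) and KO (6.56 to 10.3%). These values therefore set KO mainly against 10AF and 11AF. Without 10AF, limma called 19.2% of genes, Trp63 (log2 0.68, adjusted p = 0.042) and Krt8 (log2 -0.38, adjusted p = 0.047) among them, while DESeq2 on recovered reads called 4.74% and of the 9 genes only Krt14 (adjusted p = 0.049). Over all alternatives the adjusted p reached 0.740 for Trp63, 0.966 for Krt8 and 0.583 for Krt14. The skeletal muscle genes also separated these groups, with 3.89 to 12.6% of counts in WT and 0.0583 to 2.04% in KO. The part of the seminal vesicle tissue in these differences was not tested further, and that of muscle was not tested.

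The A537T libraries at 10 weeks were spread widely for 5 of the 9 genes. Libraries 17AF and 18AF had the highest Krt5, Krt15, Krt7, Krt4 and Trp63 of this comparison, and 16AF lay inside the range of WT for Krt5, Krt7 and Trp63 and below it for Krt15 and Krt4. Krt19 alone was higher in each A537T library than in each WT library. Limma called 0 of 15131 genes (0%), edgeR 0 and DESeq2 90. An unadjusted p under 0.05 was reached by 6.43% of genes and by 1 of the 9, and groups did not overlap with A537T higher for 5.58% of genes and with A537T lower for 6.34%.

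Krt5 had 340, 265 and 199 normalised counts in 10AF, 11AF and 12AF (WT) and 264, 691 and 1466 in 16AF, 17AF and 18AF (A537T). The lowest A537T value lay between the WT values and the highest was over 4 times the highest WT value, and the A537T mean was 807 ± 609 (SD, n = 3; log2 difference 1.30, standard error 0.57, adjusted p = 0.746 from limma). Krt15 followed it, with 327, 360 and 322 in WT and 309, 699 and 1355 in A537T. Krt7 had 256, 78.7 and 103 in WT and 106, 438 and 936 in A537T, and here 10AF stood out among the WT libraries. Trp63 had 203, 159 and 122 in WT and 156, 219.8 and 305 in A537T. Krt4 had 95.3, 107 and 94.8 in WT and 74.5, 127 and 243 in A537T. For each of these genes 18AF was the highest of the 6 libraries and 17AF came next. The log2 differences were 0.98 for Krt15, 1.46 for Krt7, 0.47 for Trp63 and 0.41 for Krt4, with adjusted p-values from 0.749 to 0.820 in limma. Krt14 did not share this pattern, with 57.0, 78.7 and 34.1 in WT and 54.3, 57.1 and 41.4 in A537T, and it was lowest in 18AF among the A537T libraries. Its log2 difference was -0.08, and 0.05 when libraries were scaled to the same total, which moved the median of all genes to 0.15.

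Among the 6 libraries of this comparison, 18AF, 17AF and 10AF were highest, in that order, for Upk3a, Krt5 and Krt7 alike. Upk1a did not share this order, and over these 6 libraries it was highest in 18AF (150 CPM), next in 11AF (120) and lowest in 10AF (41.0). Without 17AF and 18AF, which leaves a lone A537T library assumed to vary like the WT libraries, the log2 differences were 0.01 for Krt5, -0.12 for Krt15, -0.26 for Krt7, -0.41 for Krt4 and -0.02 for Trp63. The part of urothelium in the 2 libraries was not tested.

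Krt19, the type I keratin that pairs with Krt8 in ducts and other simple epithelia, had 1759, 1832 and 2048 normalised counts in WT and 2702, 2445 and 2679 in A537T. The lowest A537T library lay above the highest WT library by more than the WT libraries spanned. The log2 difference was 0.47 (standard error 0.13, adjusted p = 0.746 from limma). It was 0.53 without 17AF and 18AF. Within a library, Krt19 stood at 87.8 to 99.1% of Krt18 per kb in A537T and at 61.5 to 77.5% in WT. Krt8 differed by 0.06 and Krt18 by 0.13 on the log2 scale, less than their standard errors of 0.17 and 0.15. The 3 luminal keratins had a median log2 difference of 0.13, against 0.01 over all genes tested.

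**Figure D2:**
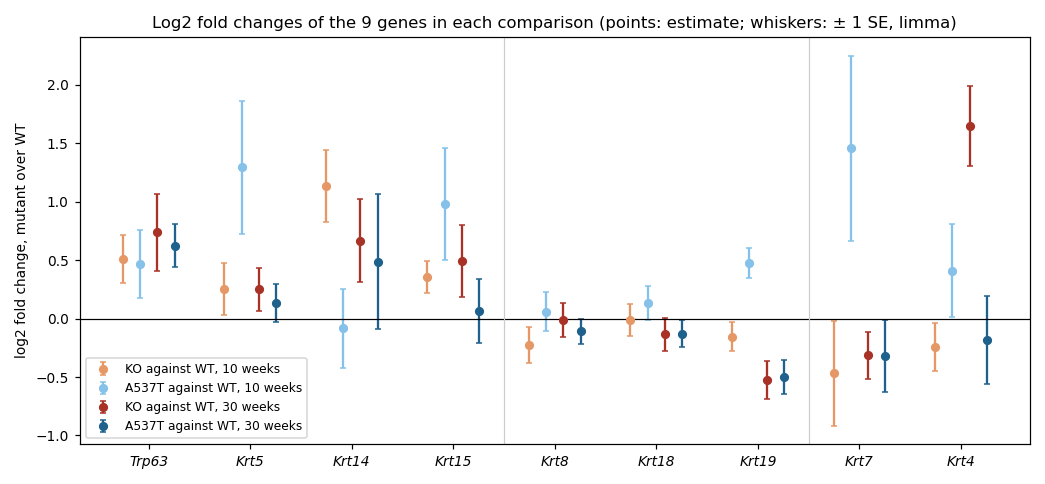
Log2 fold change of each mutant group over WT (y axis) for the 9 genes (x axis), with colours for the 4 comparisons and whiskers of 1 standard error from limma. The 4 basal genes lie above 0 except Krt14 in A537T at 10 weeks (-0.08), Krt8 and Krt18 lie between -0.22 and 0.13, and Krt4 in KO at 30 weeks stands highest at 1.65.

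At 30 weeks, when the study examined the older glands, KO libraries showed higher Krt4 and lower Krt19 than every WT library, and the basal genes overlapped. Limma called 0 of 14729 genes (0%), edgeR 0 and DESeq2 285. Groups did not overlap with KO higher for 7.92% of genes and with KO lower for 8.41%, and an unadjusted p under 0.05 was reached by 11% of genes and by 2 of the 9.

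Krt4 had 66.7, 39.2 and 49.5 normalised counts in WT libraries 1AF, 2AF and 3AF and 113, 261 and 141 in KO libraries 4AF, 5AF and 6AF. Every KO value was over 1.5 times the highest WT value, and the fold was 3.13 (log2 1.65, standard error 0.34, adjusted p = 0.331 from limma). DESeq2 on recovered reads gave log2 1.73 and called it (adjusted p = 0.00219), along with 1.93% of all genes, while edgeR did not (adjusted p = 0.342), and over all alternatives the adjusted p reached 0.872. The highest value came from 5AF, the KO library with the least seminal vesicle transcripts. With the log2 share of the seminal vesicle genes as covariate the log2 difference was 2.20. That share was 8.53% in 4AF, 6.32% in 6AF and at most 0.000380% in WT and 5AF. The covariate therefore nearly splits off 4AF and 6AF, and the 2.20 rests mainly on 5AF against WT. Krt19 had 2223, 2426.0 and 2328 in WT and 1326, 2051 and 1544 in KO, so that for this gene 5AF was the KO library closest to WT. The log2 difference was -0.53 (standard error 0.16, adjusted p = 0.407 from limma). Without 4AF and 6AF it was -0.18.

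Trp63 had 109, 112 and 104 normalised counts in WT and 268, 104 and 213 in KO. WT was tight, and 4AF and 6AF lay far above its range while 5AF lay inside it. The log2 difference was 0.74 (standard error 0.33, adjusted p = 0.465 from limma). Krt5 had 173, 229 and 188 in WT and 257, 186 and 264 in KO, Krt14 20.1, 44.9 and 32.7 in WT and 56.6, 36.0 and 60.5 in KO, and Krt15 154, 328 and 270.3 in WT and 389, 251 and 388 in KO. For all 3, 4AF and 6AF lay above every WT library and 5AF within the range of WT. With 5AF alone against WT, the differences were -0.05 for Trp63, -0.07 for Krt5, 0.21 for Krt14 and 0.07 for Krt15. Without 5AF limma called 6.41% of genes, among them Trp63 (log2 1.13, adjusted p = 0.012), Krt19 (log2 -0.70, adjusted p = 0.014) and Krt4 (log2 1.30, adjusted p = 0.041), and both libraries that then stand for KO hold seminal vesicle transcripts. Over all alternatives the adjusted p reached 0.986 for Trp63 and 0.901 for Krt19. The part of that tissue in the basal values was not tested further.

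Krt8 (log2 -0.01) and Krt18 (log2 -0.14) differed from WT by about their standard errors of 0.15 and 0.14 or less. Krt8 lay between 1409 and 1986 in KO, a wider range than the 1589 to 1847 of WT, with 4AF lowest and 5AF highest. Krt7 lay between 169 and 256 in KO against 213 to 294 in WT, and the groups overlapped (log2 -0.32, standard error 0.20, adjusted p = 0.588 from limma).

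A537T at 30 weeks had the same sign as KO for Trp63 and Krt19 and not for Krt4. The WT libraries are the same, so the 2 comparisons are not independent. Limma called 0 of 14789 genes (0%), edgeR 0 and DESeq2 472. Groups did not overlap with A537T higher for 9.18% of genes and with A537T lower for 9.4%, and an unadjusted p under 0.05 was reached by 13.6% of genes and by 2 of the 9.

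Trp63 had 109, 112 and 104 normalised counts in WT and 196, 131 and 184 in A537T libraries 7AF, 8AF and 9AF. All A537T values lay above WT, with 8AF the nearest. The mean was 170.3 ± 34.5 (SD, n = 3) against 108 ± 4.27, a 1.54-fold difference (log2 0.63, standard error 0.18, adjusted p = 0.274 from limma). Library 8AF alone, which had the least seminal vesicle transcripts of the 3, differed from WT by 0.27. Krt19 had 2234, 2436 and 2345 in WT and 1590.1, 2044 and 1387 in A537T, with no overlap and a log2 difference of -0.50 (standard error 0.15, adjusted p = 0.285). With 8AF alone it was -0.19. Without 8AF limma called 8.27% of genes, and among the 9 these were Trp63 (log2 0.80, adjusted p = 0.023) and Krt19 (log2 -0.65, adjusted p = 0.014). Over all alternatives the adjusted p reached 0.968 for Trp63 and 0.965 for Krt19.

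The other genes overlapped WT. Krt5 lay between 193 and 253 normalised counts in A537T against 174 to 231 in WT, and Krt15 between 233 and 284 against 154 to 329. Krt14 had 56.2, 18.3 and 87.6 in A537T and 20.9, 45.9 and 33.7 in WT, so that 8AF was the lowest of the 6 and 9AF the highest. Krt4 lay between 29.6 and 74.2 against 39.0 to 67.4 and Krt7 between 129 and 297 against 209.9 to 290. Krt8 differed by -0.11 and Krt18 by -0.13 on the log2 scale, with standard errors of 0.11 and 0.12. Within a library, Krt19 stood at 51.0 to 59.5% of Krt18 per kb in A537T, at 51.7 to 58.3% in KO and at 63.7 to 76.6% in WT. Libraries 8AF and 5AF, with 59.5% and 58.3%, were below the lowest WT library as well.

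The ratio of basal counts (Trp63, Krt5, Krt14 and Krt15) to luminal counts (Krt8 and Krt18) was computed in each library, where it does not depend on the size factor. In the KO table at 10 weeks it was 28.2, 20.1 and 16.9% in WT and 28.8, 27.9 and 34.2% in KO, with KO libraries 13AF and 14AF close to WT library 10AF. In the A537T table it was 28.9, 20.7 and 17.4% in WT and 20.5, 43.2 and 71.8% in A537T. In the KO table at 30 weeks it was 9.07, 16 and 13.3% in WT and 26.3, 11.1 and 21.4% in KO. In A537T at 30 weeks it was 17.7, 13 and 18% against 9.03, 15.9 and 13.3%.

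The mean ratio was higher than in WT in all 4 mutant groups, and in none did the groups separate. It was 30.3 ± 3.42% (SD, n = 3) in KO against 21.7 ± 5.81% at 10 weeks, a log2 difference of 0.51 (standard error 0.24, exact permutation test, 2-sided p = 0.2). In A537T it was 45.2 ± 25.7% against 22.3 ± 5.94% (log2 0.87, standard error 0.57, exact permutation p = 0.3). At 30 weeks it was 19.6 ± 7.74% in KO against 12.8 ± 3.48% (log2 0.56, standard error 0.45, exact permutation p = 0.3) and 16.2 ± 2.79% in A537T against 12.7 ± 3.48% (log2 0.37, standard error 0.29, exact permutation p = 0.3). The smallest p that 3 against 3 libraries allow is 0.1, and all 8 ratio tests had a Benjamini-Hochberg adjusted p of 0.4 from these exact tests. Without 17AF and 18AF the difference in A537T at 10 weeks was -0.09, and without 4AF and 6AF that in KO at 30 weeks was -0.16.

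Trp63 alone over Krt8 and Krt18 gave 3.06 to 6.18% in WT and 5.84 to 6.83% in KO at 10 weeks (log2 difference 0.60, exact permutation p = 0.3). In A537T it was 4.10 to 6.91% against 3.15 to 6.34% (log2 0.36, exact permutation p = 0.4). At 30 weeks WT was tight at 2.17 to 2.5%, and KO spread from 2.01% in 5AF to 7.26% in 4AF (log2 0.83, exact permutation p = 0.4). A537T had 2.72 to 4.68% and did not overlap its WT controls at 2.15 to 2.49% (log2 0.75, standard error 0.27, exact permutation p = 0.1, the smallest possible). The difference was 0.23 without 7AF and 9AF. At 30 weeks the 4 libraries with a seminal vesicle share over 6% had 4.64 to 7.26%, and the other 5 had 2.01 to 2.72%.

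**Figure D3:**
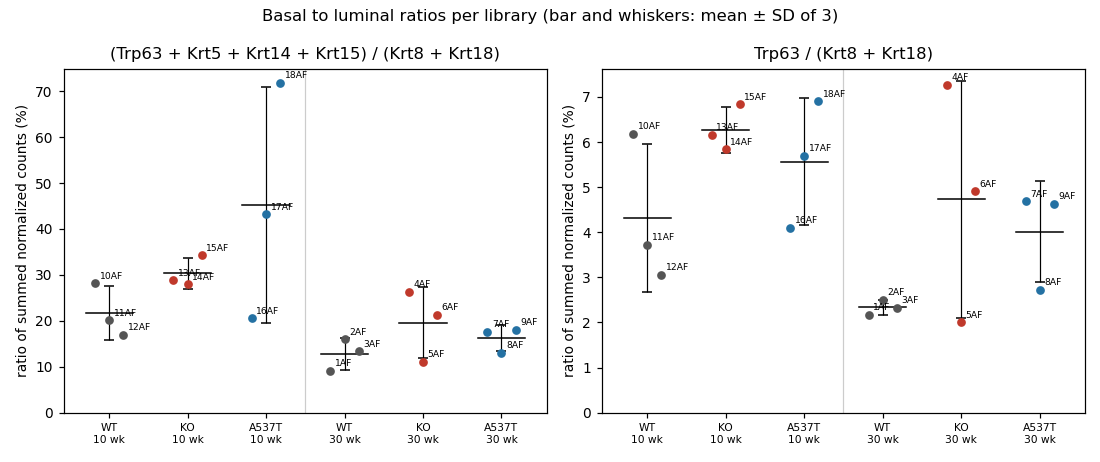
Basal to luminal ratio (left) and Trp63 to luminal ratio (right) as percent of summed normalised counts (y axis) in the 6 groups (x axis), with 1 named point per library and mean ± SD of 3. The highest basal ratios are 71.8% in 18AF and 43.2% in 17AF, and WT at 30 weeks has the lowest mean.

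Whether the differences from WT depended on age was tested by permuting genotypes exactly, inside the ages (400 arrangements). The log2 difference in basal to luminal ratio at 30 weeks less that at 10 weeks was 0.06 in KO (exact p = 0.97) and -0.50 in A537T (exact p = 0.515). Of the 9 genes, Krt4 in KO passed from a log2 difference of -0.24 at 10 weeks to 1.65 at 30 weeks, a change of 1.89 (exact p = 0.015, adjusted p = 0.420 over 14295 genes). Krt19 in A537T passed from 0.47 to -0.50, a change of -0.97 (exact p = 0.005, the smallest possible, adjusted p = 0.308 over 14292 genes). An unadjusted exact p under 0.05 was reached by 8.6% of genes in KO and 9.91% in A537T, and an adjusted one by 0% in both. The exact p cannot fall below 0.005, which 1.62% of genes reached in A537T. An adjusted value under 0.05 would need far more genes at this floor, so the 0% says little about any single gene. Krt19 was above every WT library at 10 weeks and below every WT library at 30 weeks in A537T, which 0.945% of genes were. The ages were normalised separately, so ages are set side by side here in CPM. In WT, Krt19 was at 203 ± 10.2 at 10 weeks and 258 ± 7.01 at 30 weeks (SD, n = 3), and Krt4 at 10.9 ± 1.74 and 5.77 ± 1.67. Trp63 in WT was at 17.9 ± 6.38 and 12.0 ± 0.268, and the lowest 10-week library (11.4) lay under those at 30 weeks. CPM is a share of all counts, and the WT libraries differed in makeup between ages. Skeletal muscle genes took 3.89 to 12.6% of counts at 10 weeks and at most 0.0714% at 30 weeks. The general epithelial list took 0.0904 to 0.120% and 0.175 to 0.203%. A change of a gene with age and a change of the tissue taken cannot be told apart here.

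Across the 6 groups, the orders of neighbouring mean levels were mostly within their spread. In CPM, Krt14 in KO at 10 weeks (15.6 ± 2.27) stood above the next group, WT at 10 weeks (6.53 ± 2.99), without overlap. Krt19 in A537T at 10 weeks (309 ± 30.1) stood above WT at 30 weeks (258 ± 7.01), and this above KO at 10 weeks (211 ± 10.3), both without overlap. Krt15 in KO at 10 weeks (53.2 ± 8.39) stood above KO at 30 weeks (37.5 ± 6.05), and Krt4 in KO at 10 weeks (10.7 ± 1.99) above WT at 30 weeks (5.77 ± 1.67). For Trp63, Krt5, Krt8, Krt18 and Krt7, every group overlapped the next in order. The limit given above for CPM between ages holds for these orders too.

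Other genes of the basal layer were taken from a list of 13, which holds integrin and laminin chains of the basement membrane contact. Limma called none of them in any comparison. In KO at 10 weeks 9 of 12 tested were higher than in WT (median log2 difference 0.46, all genes -0.01), among them Col17a1 (log2 0.97) and Lama3 (log2 0.76), which link basal cells to the basement membrane and did not overlap WT. Of the 12, 4 lay above WT without overlap (11.7% of all genes) and 1 below (14.3%). In A537T at 10 weeks 10 of 13 were higher (median 0.16), in KO at 30 weeks 6 of 12 (median 0.04) and in A537T at 30 weeks 7 of 12 (median 0.05). The notch ligand Jag2 lay above every WT library at 30 weeks in KO (log2 1.00) and A537T (log2 0.70), 4AF and 6AF in KO having the most. Col17a1, Lama3 and Jag2 were chosen after their values were seen. Dst, a linker of keratin filaments to hemidesmosomes and one of the most abundant genes of the list, was below every WT library in KO at 10 weeks (log2 -0.32) and in A537T at 30 weeks (log2 -0.35). At 30 weeks in KO, 2 of 12 lay above WT without overlap (7.92% of all genes) and 0 below (8.41%). In A537T at 30 weeks 1 lay above (9.18%) and 1 below (9.4%).

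Genes known as targets of p63 in epithelia were listed as 11, of which 9 were tested in each comparison. The count of those higher was 3 in KO at 10 weeks (median log2 difference -0.33), 7 in A537T at 10 weeks (0.15), 5 in KO at 30 weeks (0.03) and 4 in A537T at 30 weeks (-0.27), and limma called none. Fgfr2, a receptor of fibroblast growth factors, was higher than in WT without overlap in KO at 10 weeks (log2 1.07) and in A537T at 30 weeks (log2 1.36), where Perp, a desmosome component, was lower without overlap (log2 -0.33). Perp was also below every WT library in KO at 30 weeks (log2 -0.44). Both were chosen after their values were seen. Of the 9, 2 lay above WT without overlap in KO at 10 weeks (11.7% of all genes) and 1 below (14.3%). In KO at 30 weeks 0 lay above (7.92%) and 1 below (8.41%), and in A537T at 30 weeks 1 above (9.18%) and 1 below (9.4%). Fgfr2 had 82.9 to 107 CPM in the 4 libraries of 30 weeks with a seminal vesicle share over 6% and 21.0 to 33.4 in the other 5.

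The 7 genes of the proximal luminal list, which mark the cells near the urethra where Krt4 and Krt7 are found, were all higher than in WT in KO at 30 weeks, with a median log2 difference of 1.41. For 6 of the 7 the groups did not overlap with KO higher, as for 7.92% of all genes, and none was called by limma. The most abundant, Clu, differed by 2.11, Ly6a by 1.41 and Ppp1r1b by 0.79 (standard errors 0.44, 0.27 and 0.21). Clu had 562 to 707 CPM in the 4 libraries of 30 weeks with a seminal vesicle share over 6%, 251 in 5AF and 82.9 to 143 in WT and 8AF. The part of that tissue in these values was not tested. Among the KO libraries of 30 weeks Krt4 was highest in 5AF (31.6 CPM), as was Ppp1r1b (22.5), while Clu was lowest there. Krt7 was not higher in KO at 30 weeks, with a log2 difference of -0.32 and overlapping groups. In A537T at 30 weeks 6 of 7 were higher (median 0.72) and 2 lay above WT without overlap (9.18% of all genes). In A537T at 10 weeks 5 of 7 were higher (median 0.54) and 0 lay above WT without overlap (5.58% of all genes). In KO at 10 weeks 4 of 7 were higher (median 0.02), with 2 above WT without overlap (11.7% of all genes) and 1 below (14.3%).

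Of the luminal list of 9, 9 were lower in KO at 30 weeks (median log2 difference -0.46) and 8 in A537T at 30 weeks (median -0.69), against medians of 0.01 and 0.13 in KO and A537T at 10 weeks. Hoxb13, chosen after its values were seen, had 99.7 to 189 CPM in 4AF, 6AF, 7AF and 9AF, which hold seminal vesicle transcripts. It had 387 in 5AF, 343 in 8AF and 263 to 382 in WT. Pbsn did not share this split, with 164 CPM in 5AF and 1108 in 4AF. The part of seminal vesicle tissue in these values was not tested. The 11 general epithelial genes had medians of 0.06, 0.13, -0.20 and -0.25 and the 9 desmosome and linker genes of -0.07, 0.11, 0.0014 and -0.0035, in the order KO and A537T at 10 weeks and KO and A537T at 30 weeks. Of 13 other keratins, no more than 3 reached the minimum in any comparison. Krt23, also chosen after its values were seen, was below every WT library in A537T at 30 weeks (log2 -1.52), as were 9.4% of all genes. The 8 smooth muscle genes had medians of 0.85, 0.94, 0.23 and 0.14 in the same order, and the 8 adipocyte genes of -1.18, 0.46, 2.03 and 1.45. The 6 macrophage and leukocyte genes had medians of -0.14, -0.06, 0.47 and 1.01, and the plasma and B cell list, with 3 or 4 genes tested, of 0.03, 0.36, -0.30 and 2.23. The seminal vesicle genes had medians of 4.82, -1.70, 5.94 and 6.45, the skeletal muscle genes of -7.14, -1.64, 0.24 and -1.02 and the uroplakins of -0.40, 1.04, -0.08 and -0.56. Limma called none of these genes.

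**Figure D4:**
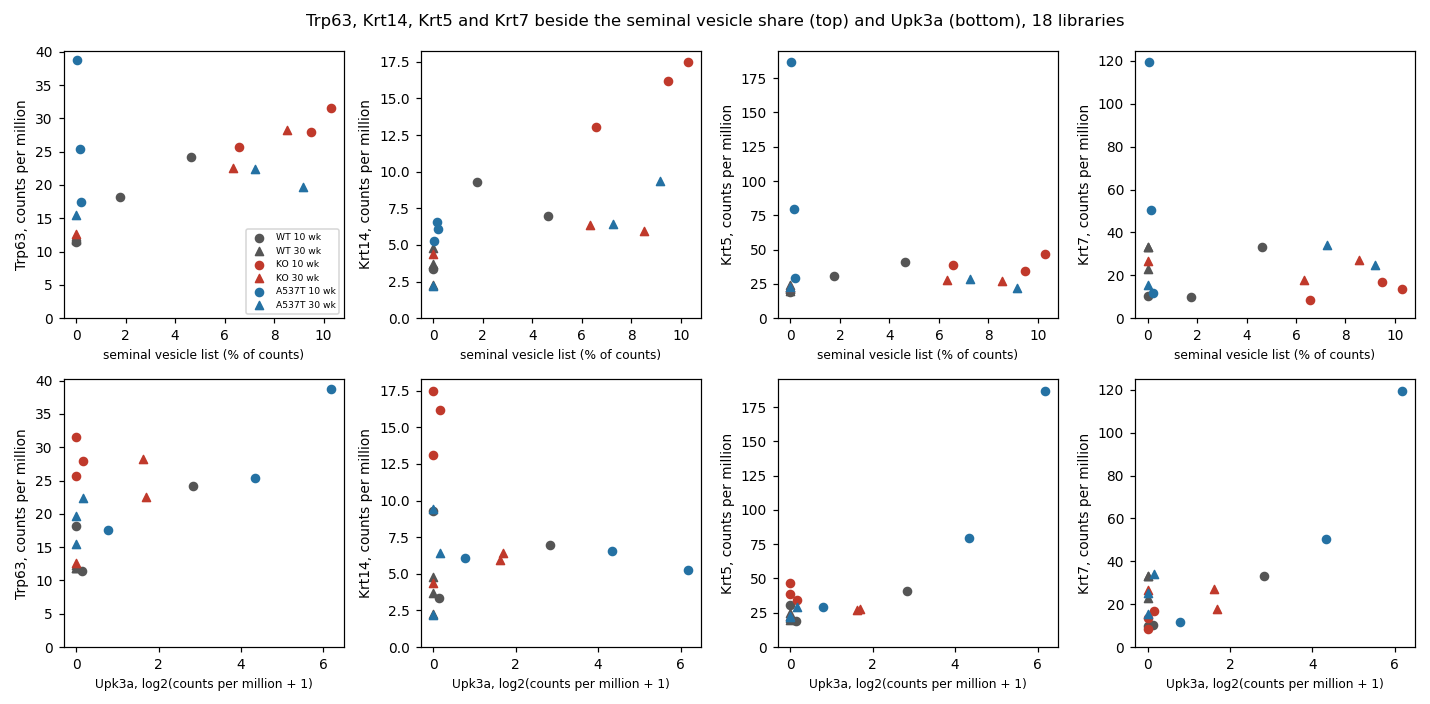
CPM of Trp63, Krt14, Krt5 and Krt7 (y axes) against the share of counts in 11 seminal vesicle genes (top, %) and against Upk3a on a log2 axis (bottom), with 1 point per library, colours for WT, KO and A537T and circles for 10 and triangles for 30 weeks. Trp63 exceeds 19 in every library with a seminal vesicle share over 4%, but is highest in 18AF (38.8) at a share of 0.0397% and is 25.4 in 17AF at 0.142%, and Krt5 and Krt7 are highest in the 2 libraries with the most Upk3a, 17AF and 18AF.

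Among 15481 genes with a mean level of at least 1 in CPM, the genes whose log2 CPM over the 18 libraries were most like Krt5 were Vsig2, Fmo5, Sdc1, Ugdh and Nrarp (Pearson r 0.95 to 0.93). Without 17AF and 18AF their r lay between 0.70 and 0.81. Those most like Trp63 were Myof, Fat2, Odam, Rgs12 and Pcdh7 (r 0.95 to 0.93), and without these 2 libraries r was 0.92 to 0.95. Those most like Krt8 were Rpl22, Rps6, Ppp1r9a, Rpl11 and Cldn4 (r 0.93 to 0.91), of which 3 encode ribosomal proteins and Cldn4 a tight junction protein. The libraries share groups, depth and tissue admixture, so these values are descriptions.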

How the data were processed

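Ventral and lateral prostate lobes of mice of 3 genotypes and 2 ages were sequenced as total RNA, 3 libraries per group. The authors trimmed reads with Trim Galore 0.4.1 and cutadapt 1.18, aligned them with STAR 2.7.3a to GRCm38.p6, quantified GENCODE vM24 transcripts with Salmon in strand-aware mode and imported them with tximport. The deposited signal values are gene counts divided by DESeq2 1.26 size factors within tables of 6 libraries. The authors' tables of fold changes, standard errors and s-values were not used. Columns name libraries and carry no replicate number. WT columns are those that both tables of an age share, and each table's line and age come from its mean counts, which equal those of the named sheets of the study's lists. P-values measure the spread between the 3 mice of a group.

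Whole reads were recovered with at least 99.99% of values within 0.1 of a whole number. In 4 columns the size factor is too close to 1 for an automatic check of the steps. WT libraries differ by up to 9.31% for a member between the 2 tables that hold them. Gene IDs were matched to GENCODE vM21 (GRCm38) without version (55107 of 55469, 54450 with version), and 35 entries are mitochondrial symbols. Lengths are those of the APPRIS principal transcript.

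Genes with a mean of at least 10 were tested per table on log2(normalised count + 1) with limma 3.58.1 (R 4.3.3, mean trend), with Benjamini-Hochberg adjustment over all genes tested and a threshold of 0.05. Fold changes on this scale understate those of low genes. The fit was tested on simulated data. Ratios were tested by exact permutation. Alternatives were pseudocount 8, minimum means of 1 and 100, scaling to the same total, TMM, edgeR 4.0.16 and DESeq2 1.42.0 on recovered reads, the log2 share of the seminal vesicle list as covariate, other definitions of the ratio, leaving out each library, and 3 pairs of libraries left out together after the data were seen. Python 3.11.15, numpy 2.4.6, pandas 2.3.3 and matplotlib 3.10.9 were used. The members, the marker lists (written by hand) and the comparisons were chosen with earlier results of these data known. Named genes are the 9 members, the 3 most abundant of a list where a result turns on them and the 5 genes most like Krt5, Trp63 and Krt8. Others named were chosen after their values were seen.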

Additional observations from a re-analysis of the deposited data

Results flagged for a closer look

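Krt19 in A537T stood above every WT library at 10 weeks and below every WT library at 30 weeks. The log2 difference from WT was 0.47 at 10 weeks and -0.50 at 30 weeks, a change of -0.97 (exact permutation of genotype within each age, p = 0.005, the smallest that 400 arrangements gave here, adjusted p = 0.308 over 14292 genes). It was the only one of the 9 genes with groups apart in opposite directions at the 2 ages. Over all genes tested in A537T, 0.945% were likewise above WT at 10 weeks and below it at 30 weeks. The smallest exact permutation p, 0.005, was reached by 1.62% of genes. The log2 difference at 10 weeks was 0.53 without 17AF and 18AF, and that at 30 weeks was -0.19 without 7AF and 9AF, which hold seminal vesicle transcripts.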

How the results depend on the processing

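No paired analysis was possible because the columns carry no replicate numbers. Values are log2 differences from WT unless they count genes called. With pseudocount 8, TMM and a minimum mean of 100, no result that could be computed changed its direction or its side of the threshold. The last gave no value for Krt14 in any comparison, nor for Krt4 in KO at 10 weeks and A537T at 30 weeks. A minimum mean of 1 called 2 genes in A537T at 10 weeks. DESeq2 called 715 (KO) and 90 (A537T) genes for the younger mice, 285 (KO) and 472 (A537T) for the older, and edgeR 0 for each. Krt8 in KO at 30 weeks turned to 0.0086 in edgeR and 0.0040 in DESeq2. Scaling to the same total at 10 weeks moved the median of all genes to 0.20 (KO) and 0.15 (A537T) and turned Krt18 (0.20) and Krt19 (0.058) in KO and Krt14 (0.051) in A537T. With the seminal vesicle covariate, Krt5 (-0.028) and Krt18 (0.014) in KO at 10 weeks, Krt8 (0.21) and Krt18 (0.071) in KO at 30 weeks and Krt14 (-0.55), Krt18 (0.032) and Krt4 (0.41) in A537T at 30 weeks turned, and 3 genes were called in the last.

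Settings that leave a lone mutant library assume that it varies like WT. Without 17AF and 18AF, Trp63 (-0.016), Krt14 (0.019), Krt15 (-0.12), Krt8 (-0.064), Krt7 (-0.26) and Krt4 (-0.41) turned, as did the basal ratio (-0.090) and the Trp63 ratio (-0.048). Without 4AF and 6AF, Trp63 (-0.054), Krt5 (-0.072), Krt8 (0.25) and Krt18 (0.11) turned, as did the basal ratio (-0.16) and the Trp63 ratio (-0.22). Without 7AF and 9AF, Krt5 (-0.030), Krt14 (-0.77), Krt8 (0.0031), Krt18 (0.061) and Krt4 (0.54) turned and 1 gene was called. These pairs were chosen after the data were seen.

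Leaving out each library in turn, limma called 0 to 2886 genes in KO at 10 weeks (most without 10AF), 0 to 50 in A537T at 10 weeks (without 10AF), 0 to 944 in KO at 30 weeks (without 5AF) and 0 to 1224 in A537T at 30 weeks (without 8AF). In KO at 10 weeks Krt18 ranged from -0.11 to 0.083 and Krt7 from -0.81 to 0.024. In A537T at 10 weeks Krt14 ranged from -0.40 to 0.19, Krt8 from -0.083 to 0.13 and Krt4 from -0.027 to 0.82. Krt8 in KO at 30 weeks ranged from -0.15 to 0.10, and in A537T at 30 weeks Krt15 from -0.25 to 0.29, Krt7 from -0.58 to 0.021 and Krt4 from -0.54 to 0.11. The change of the basal ratio with age in KO ranged from -0.20 to 0.42 and was -0.070 with the mean of log2 values. The causes of these changes were not tested. Krt14 in 8AF rests on 19 reads, the fewest of a member.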
